A study of Mus musculus with 9 samples.

Results

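The collagen genes, which encode the chains of the triple-helical proteins of the extracellular matrix, were described in mammary tumours of BlgCre-NeuKI mice. They were taken as every gene whose symbol is Col, a number, a and a number. This gave 44 of the 18484 genes listed, of which 11 are fibrillar, 9 belong to the basement membrane and 24 are others. The others comprised 9 fibril-associated collagens with interrupted triple helices (FACIT), 6 type VI chains, 3 short-chain collagens, 4 transmembrane collagens, and Col26a1 and Col28a1. Genes for collagen-binding or collagen-modifying proteins whose symbols merely begin with Col were not members.

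Collagen chains wind into trimers that assemble outside the cell: fibrillar collagens form the tensile fibres of the stroma, type IV chains form the sheet on which epithelial cells rest, and FACIT, type VI and transmembrane collagens link fibres, microfilaments and cell surfaces. In mammary tumours much of the fibrillar collagen is made by stromal fibroblasts, whereas basement membrane chains are made by epithelial, endothelial and other cells. Chains of cartilage collagens (types II, IX and XI) are best known from the skeleton.

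All animals were heterozygous for NeuKI, an activated rat Neu placed in the Erbb2 locus behind a floxed stop cassette, on a mixed FVB/C57Bl6 background, and carried BlgCre, which expresses Cre from the beta-lactoglobulin promoter in luminal, oestrogen receptor-negative mammary cells. RNA-seq was available for 9 tumours, each with 1 library from snap-frozen, untreated tissue. The 5 high-amplified tumours, in which genomic qPCR found many copies of the Erbb2/Neu locus, were all adenocarcinomas of no special type, AC(NST). Virgin mice gave MS1213.1 and the pair MS1163.1 and MS1163.2, whereas MS1218.2 came from a parous mouse, as did MS1155.3. The 3 not/low-amplified epithelial tumours were all from parous mice: MS1210.1 and MS1349.1 were metaplastic adenosquamous carcinomas (ASQC) and MS1166.1 was an AC(NST). MS1156.1 was a not/low-amplified mammary sarcoma from a parous mouse and entered none of the 3 group comparisons, apart from 1 alternative fit in which it joined the not/low-amplified group. Amplification, parity and histotype therefore overlap: every virgin tumour was high-amplified and both ASQC were not/low-amplified, and their effects cannot be told apart in full. MS1163.1 and MS1163.2 carry the same mouse number, and MS1218.2 was the tumour that the study's methods set apart for its lower purity of tumour cells. In the study, MS1213.1 and MS1218.2 were high by genomic qPCR but low by droplet digital PCR. Copy number from exome sequencing sided with qPCR for MS1213.1 and with droplet digital PCR for MS1218.2. The high-amplified label of MS1218.2 therefore rests on qPCR alone. Mouse ages at collection were not used here. In every list of values the high-amplified tumours are ordered MS1213.1, MS1163.1, MS1163.2, MS1218.2, MS1155.3 and the not/low-amplified tumours MS1210.1, MS1349.1, MS1166.1.

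Total counts per tumour lay between 12501225 and 23912429. Values are given as normalized counts, the reads counted on a gene divided by a median-of-ratios size factor for each of the 9 libraries. Erbb2 had 5053 to 101159 normalized counts in the high-amplified tumours and 1474 to 2669 in the not/low-amplified epithelial tumours. Its RNA thus did not overlap between the groups, whose labels rest on DNA copies and are not checked by RNA. The summed normalized counts of 6 luminal epithelial markers lay between 33623 and 132973 in the 8 epithelial tumours and were 457 in the sarcoma. MS1218.2 stood apart in its markers of other cell types: 10 fibroblast markers summed to 19895 normalized counts there and to 3265 to 8422 in the other epithelial tumours, and 6 macrophage markers to 39120.4 against 2998 to 11674. For 8 endothelial markers the sum was 16012 against 2649 to 7062.

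The bases before the start sites of 4 genes are shown, and no result below depends on these bases. The genes were picked for their counts: Col11a1 and Col20a1 passed the test between amplification groups. Col11a2 encodes a further chain of type XI collagen, and Col28a1, like Col20a1, was far higher in the sarcoma than in any epithelial tumour. Each run holds the 250 bases before the RefSeq start, 5′ to 3′ on the gene's strand, in build GRCm38.p6. Capitals mark a TATA box, a CCAAT box or a SOX core.
Col11a1, chr3:114030290-114030539, + strand: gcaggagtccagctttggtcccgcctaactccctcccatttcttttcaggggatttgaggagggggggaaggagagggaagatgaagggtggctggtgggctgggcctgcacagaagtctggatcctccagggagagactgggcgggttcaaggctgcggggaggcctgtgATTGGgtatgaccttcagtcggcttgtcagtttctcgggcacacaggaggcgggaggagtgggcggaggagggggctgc
Col11a2, chr17:34038888-34039137, + strand: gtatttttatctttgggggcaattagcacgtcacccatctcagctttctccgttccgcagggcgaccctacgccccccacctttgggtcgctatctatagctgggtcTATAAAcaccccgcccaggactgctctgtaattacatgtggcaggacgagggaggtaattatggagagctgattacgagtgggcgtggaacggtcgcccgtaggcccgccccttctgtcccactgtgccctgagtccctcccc
Col20a1, chr2:180986285-180986534, + strand: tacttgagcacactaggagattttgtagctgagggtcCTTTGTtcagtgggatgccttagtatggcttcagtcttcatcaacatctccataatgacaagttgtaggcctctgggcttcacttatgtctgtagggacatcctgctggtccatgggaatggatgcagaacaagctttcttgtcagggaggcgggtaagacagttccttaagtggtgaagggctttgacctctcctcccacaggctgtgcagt
Col28a1, chr6:8192618-8192867, - strand: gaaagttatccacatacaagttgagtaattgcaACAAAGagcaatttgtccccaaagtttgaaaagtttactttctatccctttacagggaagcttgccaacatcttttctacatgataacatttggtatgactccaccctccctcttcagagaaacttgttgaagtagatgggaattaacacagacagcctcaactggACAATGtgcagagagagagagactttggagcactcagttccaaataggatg
RefSeq gave promoter windows for 35 of the 44 genes. Searched on both strands were the TATA box (TATAAA), the CCAAT box (CCAAT), the GC box (GGGCGG), the SOX core (ACAAAG or ACAATG) and the AP-1 site (TGAGTCA or TGACTCA). Of 32851 mouse promoter windows, which run from 250 bases before to 50 bases after a start, 13.6% held the TATA box, 37.4% the CCAAT box, 35.7% the GC box, 28.6% the SOX core and 5.20% the AP-1 site. The Col11a1 window held a CCAAT box at position -79 from the start and GC boxes at -110 and -19. That of Col11a2 held a TATA box at -143 and GC boxes at -133 and -38. Col20a1 had a SOX core at -213, and Col28a1 had SOX cores at -217 and -51 and no GC box. No match overlapped another in these 4 windows. The share of G and C ran from 62.4% before Col11a1 and 57.6% before Col11a2 to 49.2% before Col20a1 and 40.4% before Col28a1. These matches describe the letters of the windows and are not sites shown to be bound.

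Collagen genes took 1.46, 1.1, 1.42, 3.75 and 0.710% of all counts in the high-amplified tumours and 1.40, 0.630 and 0.518% in the not/low-amplified tumours. The groups overlapped, and MS1218.2 alone lay above all other epithelial tumours. In the sarcoma the share was 6.63%. The Wilson 95% interval in MS1218.2 was 3.74 to 3.76% and covers counting error only. Fibrillar genes made up the largest part in every tumour, and Col1a1, Col1a2 and Col3a1, the chains of the main stromal fibres, together held 28.6% (MS1166.1) to 57.9% (MS1218.2) of the collagen counts. The sum over 10 fibroblast markers was 7643, 5369, 8422, 19895 and 4721 normalized counts in the high-amplified and 7316, 4581 and 3265 in the not/low-amplified tumours. MS1218.2 was highest and MS1166.1 lowest in both the collagen share and this sum, whose part in the collagen values was not tested. In bulk tissue, fewer cells of a type and less RNA per cell cannot be told apart.

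**Figure D1:**
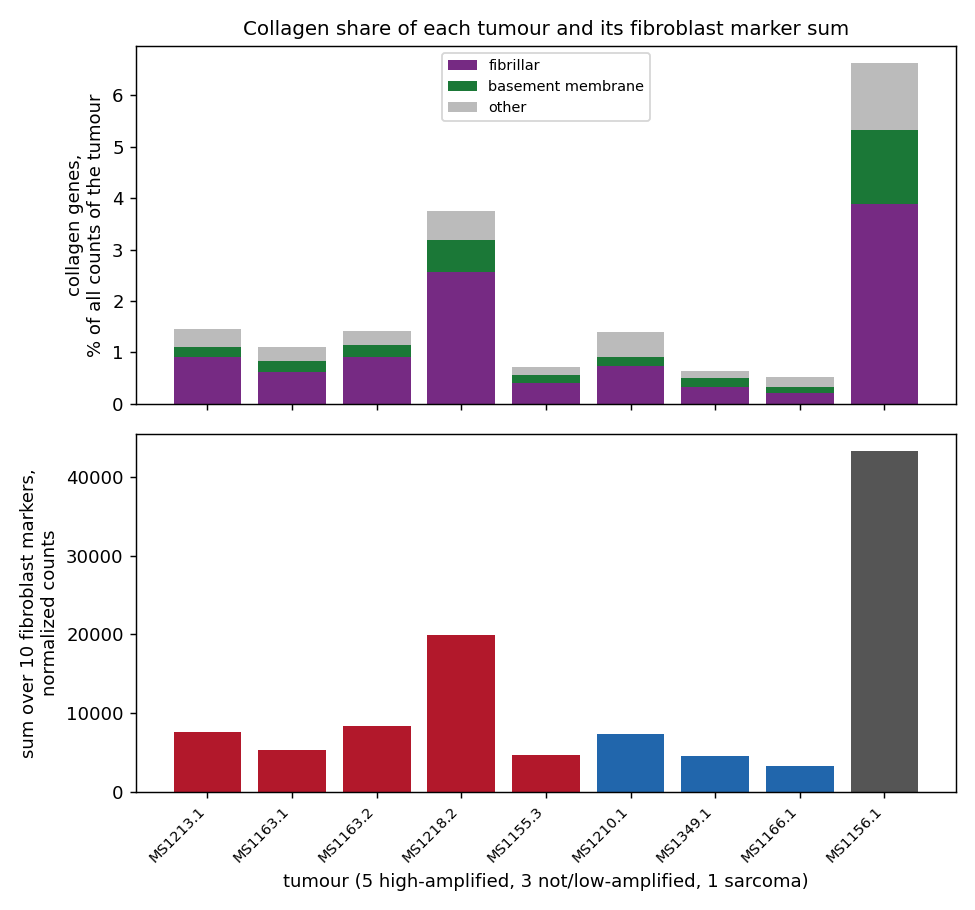
Top: the percent of all counts held by collagen genes in each of the 9 tumours (bars), split into fibrillar, basement membrane and other genes. Bottom: the sum of normalized counts over 10 fibroblast markers in the same tumours (bars, red for high-amplified, blue for not/low-amplified, grey for the sarcoma). MS1218.2 (3.75%) and the sarcoma (6.63%) stand highest in both panels.

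MS1218.2 had the highest value of the 8 epithelial tumours for 19 of the 42 collagen genes that passed the count filter, against 19.5% of all 14007 genes. These 19 included both type I chains, Col3a1, all 3 type V chains, Col4a1, Col4a2, Col15a1, Col18a1 and Col6a1 to Col6a4. At the other end, MS1166.1 had the lowest value for 19 of 42, against 20.7% of all genes, among them Col1a1, Col1a2, Col3a1, Col5a1 to Col5a3, Col4a1 and Col4a2. MS1210.1, an ASQC, was highest for 5 genes, Col7a1, Col10a1, Col12a1, Col17a1 and Col24a1 (background 8.67%). Across the 5 high-amplified tumours the SD of the log2 values had a median of 1.09 over the 42 collagen genes and of 0.594 over all genes, and Col11a1 had the smallest SD of the 42, 0.164. In the heat map of all 44 genes, the high values of MS1218.2 and the row of Col11a1, even among the high-amplified tumours, stand side by side.

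**Figure D2:**
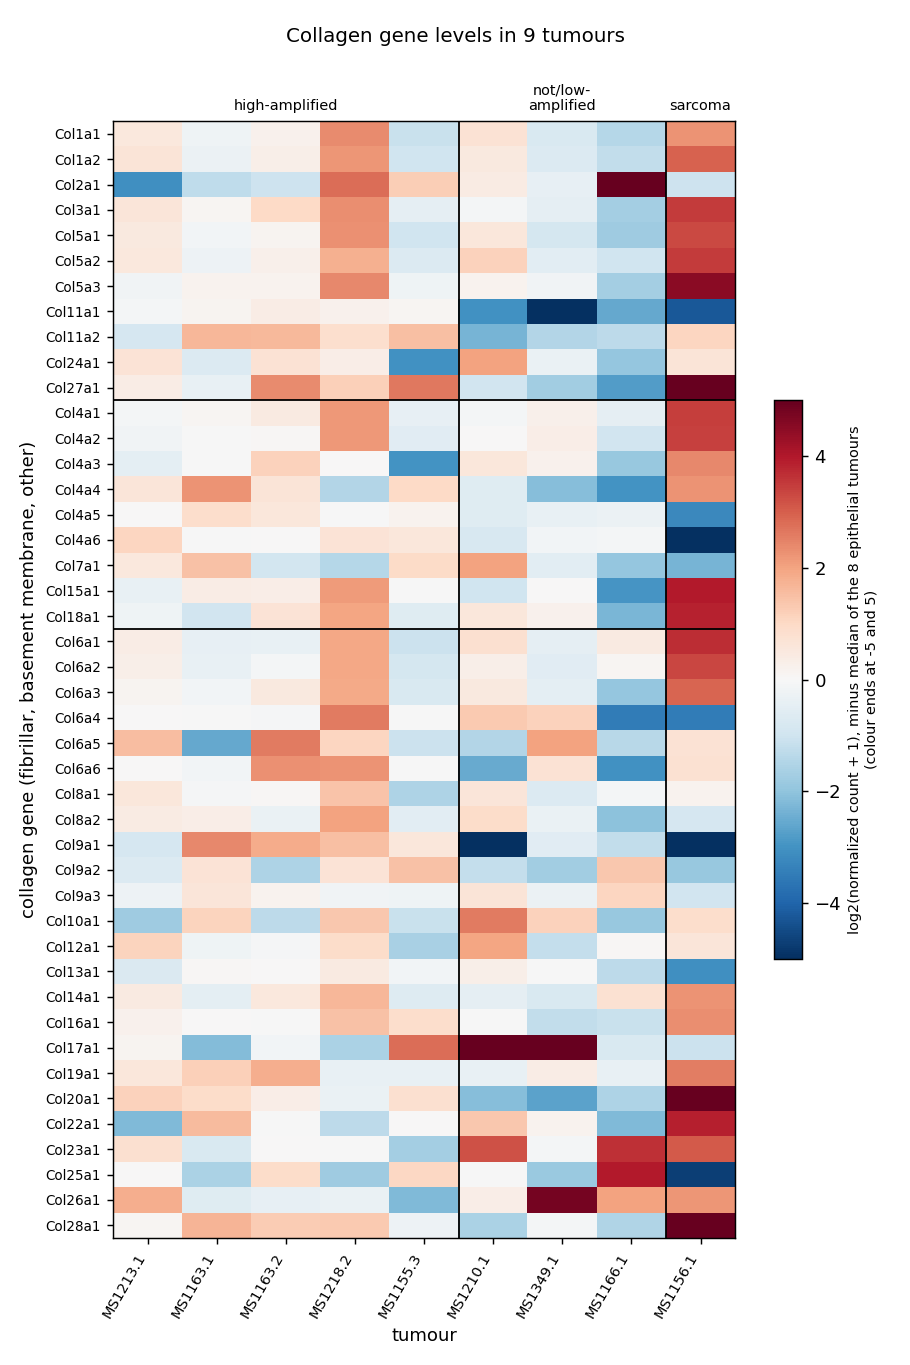
Levels of the 44 collagen genes (rows, by class) in the 9 tumours (columns, by group), as log2(normalized count + 1) minus the median of the 8 epithelial tumours; red is above and blue below that median, and colours end at -5 and 5. MS1218.2 is highest of the epithelial tumours for 19 of the 42 filtered genes, and Col11a1 is low in the sarcoma and in all 3 tumours labelled not/low-amplified.

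The first comparison asked which collagen genes differ between high-amplified and not/low-amplified tumours. Col11a1 and Col20a1 were higher in the high-amplified tumours, and no collagen gene was called in the other direction. A gene was called at an adjusted p-value under 0.05 with a log2 fold change outside -1 to 1 in edgeR's quasi-likelihood test over 14007 genes with Benjamini-Hochberg adjustment. The 2 of 42 higher calls stand against 0.435% of all genes, and the 0 of 42 lower calls against 0.485%. At an unadjusted p under 0.05 there were 15 of 42 in either direction, against 22.8% of all genes. The values of 6 genes (Col11a1, Col11a2, Col20a1, Col27a1, Col4a5 and Col4a6) did not overlap between groups and were higher in the high-amplified tumours, against 7.5% of genes, and 0 did so in the other direction, against 8.09%. The median log2 fold change of the 42 was 0.72, with 32 above and 10 below 0, beside a median of 0.0245 for all genes. The sum over 6 luminal epithelial markers did not overlap between the same groups, at 33623 to 53383 normalized counts in the high-amplified and 76936 to 132973 in the not/low-amplified tumours. All 6 had a negative log2 fold change and none passed edgeR's test, and of the fibroblast markers 9 of 10 were positive (median 0.93). The part of either in the collagen differences was not tested. With 1 library per tumour, p-values measure the spread between these tumours only.

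**Figure D3:**
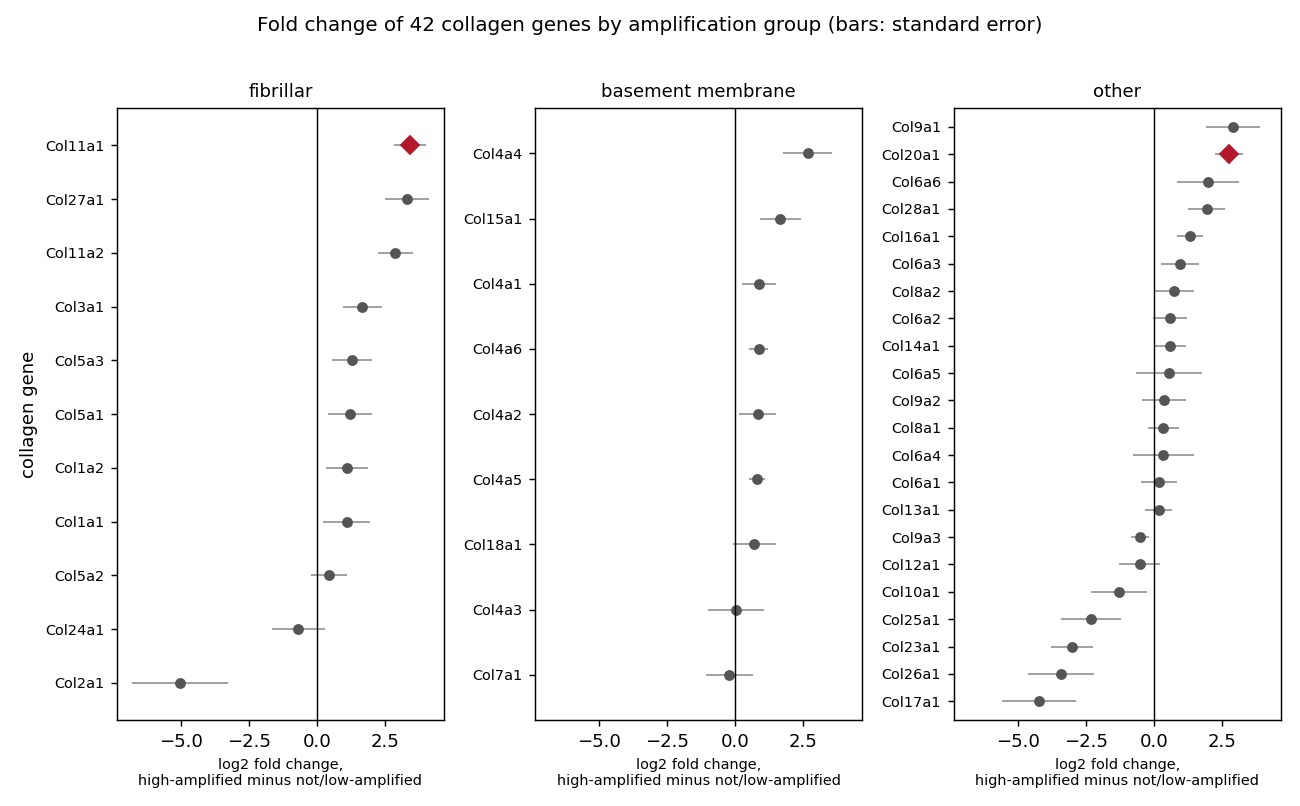
Log2 fold change (horizontal axis, high-amplified minus not/low-amplified, edgeR) of the 42 collagen genes past the filter, in 3 panels by class; bars are standard errors and red diamonds mark the genes called. Col11a1 (3.41) and Col20a1 (2.76) are the called genes, and Col2a1 (-5.04) lies farthest below 0 with a wide error.

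Among the fibrillar genes, Col11a1 showed the clearest separation. The gene, at chr3:114030540-114220718 on the + strand of GRCm38, encodes a chain of type XI collagen, a minor fibrillar collagen that sits inside fibrils and limits their width. It had 14369, 16822, 19613, 17545 and 16146 normalized counts in the high-amplified tumours and 1869.7, 388 and 2592 in the not/low-amplified tumours. The 5 high-amplified tumours lay close together, the lowest was 5.54 times the highest not/low-amplified tumour, and the ASQC MS1349.1 was lowest. The group means were 16899 ± 1921 (SD, n = 5) and 1617 ± 1123 (SD, n = 3). In edgeR's quasi-likelihood test its log2 fold change was 3.41 (SE 0.59, Benjamini-Hochberg adjusted p = 0.0362). The call was kept without MS1218.2 (edgeR adjusted p = 0.0226) and without MS1349.1 (adjusted p = 0.0488), and was lost without any other single tumour, with edgeR adjusted p-values of 0.0659 (MS1213.1), 0.0861 (MS1163.1), 0.0729 (MS1163.2), 0.0703 (MS1155.3), 0.135 (MS1210.1) and 0.0510 (MS1166.1), while the log2 fold change stayed between 2.95 and 3.91. Per kilobase of exon, Col11a1 averaged 876 normalized counts over the epithelial tumours, more than Col5a1 (693) and less than Col1a1 (5715), Col3a1 (3625) or Col1a2 (2449.9).

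Col11a2, a partner chain of type XI, had 46.5, 272, 260.1, 152 and 238 normalized counts in the high-amplified tumours and 16.2, 30.2 and 33.2 in the not/low-amplified tumours. MS1213.1 was the lowest high-amplified tumour, close to the not/low-amplified range but above it. Col27a1, a fibrillar collagen known from cartilage, had 223, 136, 891, 402 and 1089 normalized counts in the high-amplified tumours and 89.0, 51.3 and 24 in the not/low-amplified tumours. Its groups did not overlap either, although the high-amplified tumours differed up to 7.98 times among themselves. The log2 fold changes were 2.88 (SE 0.63) and 3.31 (SE 0.80), and neither passed edgeR's test (adjusted p = 0.0641 and 0.0752). Without MS1218.2 both were called, with edgeR adjusted p = 0.0355 for Col11a2 and 0.0454 for Col27a1, and without MS1213.1 Col11a2 was called as well (0.0433).

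The abundant stromal fibrillar genes overlapped between groups. Col3a1, the type III chain of stretchable tissues, had 35403, 24633, 45750.1, 116589.8 and 16743 normalized counts in the high-amplified tumours and 21764, 16733 and 7065 in the not/low-amplified tumours. Every high-amplified tumour but MS1155.3 was above the highest not/low-amplified tumour. Col1a1, the main type I chain, had 36829.6, 22141, 29655, 132783 and 11870.4 normalized counts in the high-amplified tumours and 41918, 15245 and 9617 in the not/low-amplified tumours, and here MS1210.1 lay above 4 of the 5 high-amplified tumours. Their log2 fold changes were 1.67 (SE 0.73) and 1.09 (SE 0.85), Col1a2 had 1.11 (SE 0.77), and the edgeR adjusted p-values were 0.209, 0.465 and 0.411. For the type V chains, which join type I fibrils and set their width, they were 1.21 for Col5a1, 0.43 for Col5a2 and 1.30 for Col5a3, and none passed. All of the 11 fibrillar genes except Col2a1 and Col24a1 had a positive log2 fold change, with a median of 1.21.

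Col2a1, the main cartilage collagen, was an exception that rested on 1 tumour. It had 1.86, 9.03, 10.8, 163 and 54.6 normalized counts in the high-amplified tumours and 31.0, 16.9 and 4926 in the not/low-amplified tumours. MS1166.1 was 30.3 times above the next tumour, and the other not/low-amplified tumours lay within the high-amplified range. The log2 fold change of -5.04 (SE 1.76, edgeR adjusted p = 0.141) became 1.01 without MS1166.1. Among 6 chondrocyte markers, MS1166.1 had 1387 normalized counts of Chad, a cartilage matrix protein, against at most 96.6 in the other epithelial tumours, 4321 of the transcription factor Sox9 (others 568 to 2351) and 160.3 of Acan (MS1163.2 had 156), while Comp stood at 10.3 and the defining marker Matn1 at 0. The list summed to 5892 in MS1166.1 and to 834 to 9714 in the high-amplified tumours, and its part in the result was not tested. Col24a1, a fibrillar gene known from bone, had 61.4, 23.1, 63.5, 48.3 and 3.72 normalized counts in the high-amplified tumours and 155, 29.5 and 9.16 in the not/low-amplified tumours. MS1210.1 was highest and MS1155.3 lowest, the groups overlapped, and the log2 fold change was -0.69 (SE 0.97).

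**Figure D4:**
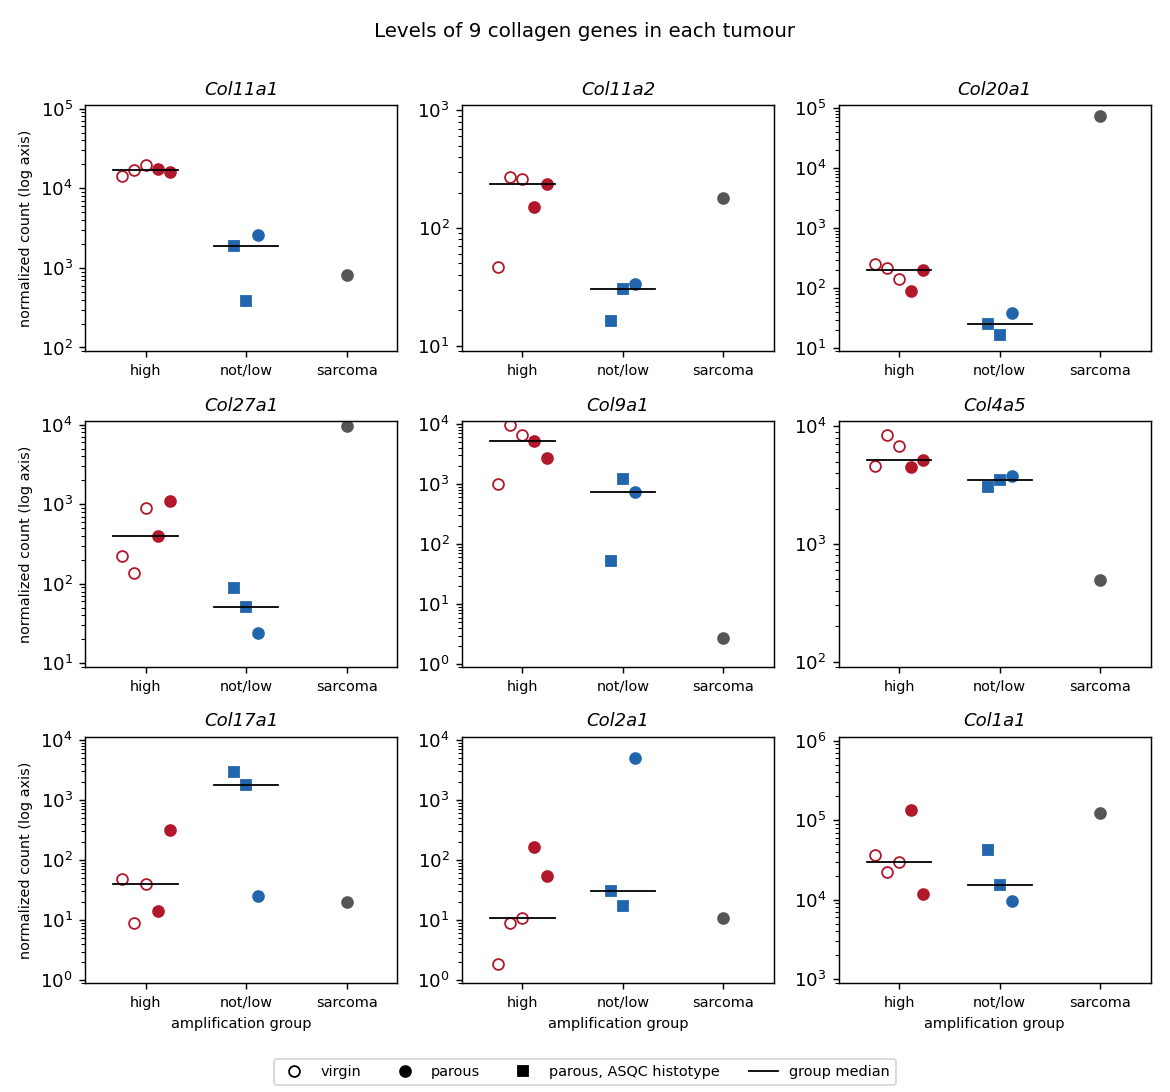
Normalized counts (vertical log axis) of 9 collagen genes in each tumour, by amplification group; open symbols are virgin, filled symbols parous, squares ASQC, and lines are group medians. Col11a1, Col11a2, Col20a1, Col27a1 and Col4a5 do not overlap between the high-amplified and not/low-amplified tumours, Col17a1 is highest in the 2 ASQC, and Col2a1 is high in MS1166.1 alone.

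No basement membrane gene passed edgeR's test, DESeq2 called Col4a4 higher in the high-amplified tumours, and 8 of the 9 had a positive log2 fold change (median 0.82). Col4a5 and Col4a6, neighbours on the X chromosome whose chains build a network under some epithelia and smooth muscle, were the members without overlap between groups. Col4a5 had 4597, 8408, 6769.8, 4531 and 5185 normalized counts in the high-amplified tumours and 3023, 3492 and 3772 in the not/low-amplified tumours. Col4a6 had 4028, 1888, 1888, 3006 and 2814 normalized counts in the high-amplified tumours and 1083, 1737 and 1779 in the not/low-amplified tumours. Both differences were small beside those of the type XI genes, with log2 fold changes of 0.80 (SE 0.30) and 0.85 (SE 0.34) and edgeR adjusted p-values of 0.156 and 0.175. Col4a1 and Col4a2, the chains found in nearly all basement membranes, were the most abundant of the class per kilobase of exon, with 1949.7 and 1328 normalized counts per kilobase on average. Col4a1 had 9514, 10932, 13772, 45318 and 7633 normalized counts in the high-amplified tumours and 9499, 12259.9 and 7491 in the not/low-amplified tumours. MS1218.2 was over 3 times the next tumour and the remaining tumours overlapped, with a log2 fold change of 0.86 (SE 0.63).

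Col4a4, a chain best known from the kidney filter, was scarce, with 81.0, 252, 81.5, 18.4 and 105 normalized counts in the high-amplified tumours and 33.7, 11.2 and 5.72 in the not/low-amplified tumours. MS1218.2 lay within the not/low-amplified range, and the log2 fold change was 2.66 (SE 0.91, edgeR adjusted p = 0.134), and 2.93 (adjusted p = 0.0482) without MS1218.2. Col15a1, which bridges basement membranes to fibrils, had 1614, 2711, 2631, 9155 and 2057 normalized counts in the high-amplified tumours and 1043, 2164 and 271 in the not/low-amplified tumours, with MS1166.1 lowest and MS1218.2 highest. Its log2 fold change was 1.66 (SE 0.77, edgeR adjusted p = 0.236). Col7a1 forms the anchoring fibrils below stratified epithelia and had 1349, 2613, 496, 347 and 1813 normalized counts in the high-amplified tumours and 3773, 650.3 and 242 in the not/low-amplified tumours. MS1210.1 was highest, MS1166.1 lowest, and the log2 fold change was -0.22 (SE 0.87). It was 1.58 without MS1210.1 alone. Without the 2 ASQC it was 2.42, but MS1166.1 is then the only not/low-amplified tumour. Col18a1, the source of endostatin, and Col4a3 had log2 fold changes of 0.69 and 0.027.

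Of the 22 other collagen genes tested, Col20a1 was called. It is a FACIT collagen at chr2:180986535-181018363 on the + strand of GRCm38 and had 251, 217, 145, 89.6 and 199 normalized counts in the high-amplified tumours and 25.6, 16.9 and 38.9 in the not/low-amplified tumours. Every high-amplified tumour was above every not/low-amplified tumour, with MS1218.2 the lowest of its group. The means were 180.2 ± 63.6 (SD, n = 5) and 27.1 ± 11.1 (SD, n = 3), so the gene was scarce in epithelial tumours next to Col11a1, also per kilobase of exon (23.9 against 876). Its log2 fold change was 2.76 (SE 0.51, edgeR adjusted p = 0.0410). The call was kept when MS1218.2 was left out (edgeR adjusted p = 0.0146) and was lost without any other single tumour, although the log2 fold change stayed between 2.52 and 3.08 in all 8 omissions, with edgeR adjusted p-values of 0.0813 (MS1213.1), 0.0980 (MS1163.1), 0.0729 (MS1163.2), 0.0847 (MS1155.3), 0.150 (MS1210.1), 0.101 (MS1349.1) and 0.0637 (MS1166.1). Setting the sarcoma with the not/low-amplified tumours turned its log2 fold change to -6.66.

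Both calls were also lost when parity was a covariate (edgeR adjusted p = 0.185 for each gene). They were lost in parous tumours alone (edgeR adjusted p = 0.321 for Col11a1 and 0.371 for Col20a1). Summing the pair of tumours with the same mouse number lost them as well (edgeR adjusted p = 0.0742 and 0.0815). AC(NST) tumours alone leave MS1166.1 as the only not/low-amplified tumour, so only the effect size is read there. With that fit included, the log2 fold changes were 2.68 to 3.44 for Col11a1 and 2.18 to 2.76 for Col20a1. DESeq2 on the same counts called 8 collagen genes higher in the high-amplified tumours (Col4a4, Col9a1, Col11a1, Col11a2, Col16a1, Col20a1, Col27a1 and Col28a1; background 6.31%) and Col17a1 and Col23a1 higher in the not/low-amplified tumours (background 4.32%). Without MS1218.2, edgeR called 5 higher, Col4a4, Col11a1, Col11a2, Col20a1 and Col27a1 (background 5.44%), and 0 lower (background 3.65%).

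Col9a1, a FACIT chain that decorates type II fibrils in cartilage, had 981, 9513, 6457, 5104 and 2658 normalized counts in the high-amplified tumours and 51.9, 1191 and 748 in the not/low-amplified tumours. MS1213.1 lay inside the not/low-amplified range and MS1210.1 was far below all others. The log2 fold change was 2.91 (SE 1.0, edgeR adjusted p = 0.135). Of the chondrocyte markers, Comp had 8.38, 8255, 855, 602 and 9.93 normalized counts in the high-amplified tumours and 6.07, 14.0 and 10.3 in the not/low-amplified tumours, with MS1163.1 highest for both genes. The markers of the list lay on both sides of 0: Chad, Sox9 and Acan were highest in MS1166.1, with log2 fold changes of -3.81 (SE 1.54), -1.10 (SE 0.59) and -0.81 (SE 1.55), against 7.59 (SE 2.40) for Comp, and none passed. The part of these markers in the Col9a1 values was not tested. Col28a1, a chain with von Willebrand factor A domains, had 36.3, 111, 83.9, 85.2 and 28.5 normalized counts in the high-amplified tumours and 10.8, 31.6 and 11.4 in the not/low-amplified tumours, with overlap through MS1155.3 and MS1349.1 and a log2 fold change of 1.94 (SE 0.68). All 6 type VI genes, which build beaded microfilaments, were above 0 with a median of 0.58; the farthest was Col6a6 at 1.99 (SE 1.15), on at most 83.9 normalized counts. Col12a1, which coats type I fibrils and was the most abundant of the other genes per kilobase of exon (1212), had 27375, 10912, 12271, 24128 and 4195 normalized counts in the high-amplified tumours and 49815, 5575 and 13361 in the not/low-amplified tumours. MS1210.1 was highest, MS1155.3 lowest, and the log2 fold change was -0.52 (SE 0.76). The remaining 13 tested genes of the class ranged from -1.28 (Col10a1) to 1.33 (Col16a1), and none passed edgeR's test: Col10a1, Col13a1, Col14a1, Col16a1, Col6a1, Col6a2, Col6a3, Col6a4, Col6a5, Col8a1, Col8a2, Col9a2 and Col9a3. DESeq2 called Col16a1 of these, higher in the high-amplified tumours. Col19a1 and Col22a1 did not pass the count filter, with at most 3.60 and 13.0 normalized counts in an epithelial tumour.

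Of the 4 transmembrane collagens, 3 had a negative log2 fold change and Col13a1 a positive one of 0.18, with a median of -2.66, and none passed edgeR's test. Col17a1, the collagen of hemidesmosomes that tie basal epithelial cells to the basement membrane, had 48.4, 9.03, 39.6, 14.1 and 313 normalized counts in the high-amplified tumours and 2934, 1761 and 25.2 in the not/low-amplified tumours. The 2 ASQC were far above the rest, MS1155.3 came next, and the AC(NST) MS1166.1 lay within the high-amplified range. Its log2 fold change was -4.22 (SE 1.35, edgeR adjusted p = 0.120). Among AC(NST) tumours alone, where MS1166.1 is the only not/low-amplified tumour, it was 1.70. Col23a1 had 75.4, 25.1, 43.2, 42.2 and 12.4 normalized counts in the high-amplified tumours and 394, 40.0 and 552 in the not/low-amplified tumours, with MS1349.1 inside the high-amplified range and a log2 fold change of -3.01 (SE 0.76, adjusted p = 0.0807). Col25a1, with 129, 42.1, 246, 36.9 and 263 normalized counts in the high-amplified tumours and 128, 35.1 and 2042 in the not/low-amplified tumours, again rested on MS1166.1: its log2 fold change of -2.32 (SE 1.1) was 0.81 without that tumour. Col26a1, of no larger class, reached 124 normalized counts in MS1349.1 and at most 17.2 elsewhere in the epithelial tumours, with a log2 fold change of -3.40 (SE 1.20).

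Chains that share a trimer or a fibril were set against each other as ratios of counts per kilobase of exon, with 1 count added to each, for 7 pairs. The ratio of Col1a1 to Col1a2, the chains of type I collagen, was 2.03, 2.36, 2.10, 2.51 and 2.08 in the high-amplified and 2.59, 2.10 and 1.98 in the not/low-amplified tumours, so it varied far less than either gene. The ratio of Col4a1 to Col4a2 was 1.45, 1.5, 1.80, 1.39 and 1.54 in the high-amplified and 1.28, 1.34 and 2.00 in the not/low-amplified tumours. These genes lie head to head on chromosome 8, at 11198423 to 11312826 and 11312805 to 11449287 in GRCm38, and their exons share 22 bases. The strand setting of the read counting was not given in the sources used here, so how reads in that stretch were counted is not known. The difference in mean log2 ratio between amplification groups was -0.0016 for Col1a1 and Col1a2 and 0.021 for Col4a1 and Col4a2 (exact permutation test over the 56 splits, two-sided, p = 1 and 0.929).

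The ratio of Col6a1 to Col6a2 was 2.15, 2.00, 1.70, 2.06 and 1.79 in the high-amplified and 2.92, 2.28 and 2.62 in the not/low-amplified tumours, lower in every high-amplified tumour (log2 difference -0.42, exact permutation p = 0.0179, the smallest this design allows, adjusted p = 0.125 over 7 pairs). That of Col5a1 to Col5a2 was 0.881, 0.959, 0.812, 1.23 and 0.702 in the high-amplified and 0.587, 0.690 and 0.515 in the not/low-amplified tumours, higher in every high-amplified tumour (log2 difference 0.60, exact permutation p = 0.0357, adjusted p = 0.125). For Col11a1 to Col5a1, chains that can join in mixed fibrils, the ratio was 1.59, 2.91, 2.80, 0.567 and 5.10 in the high-amplified and 0.200, 0.113 and 1.38 in the not/low-amplified tumours. MS1218.2 lay below the not/low-amplified MS1166.1, and the log2 difference of 2.71 had an exact permutation p of 0.0536 (adjusted p = 0.125). Col4a5 to Col4a6 and Col8a1 to Col8a2 differed by -0.059 and -0.72 (exact permutation p = 0.875 and 0.321). None of the 7 pairs passed 0.05 after adjustment.

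**Figure D5:**
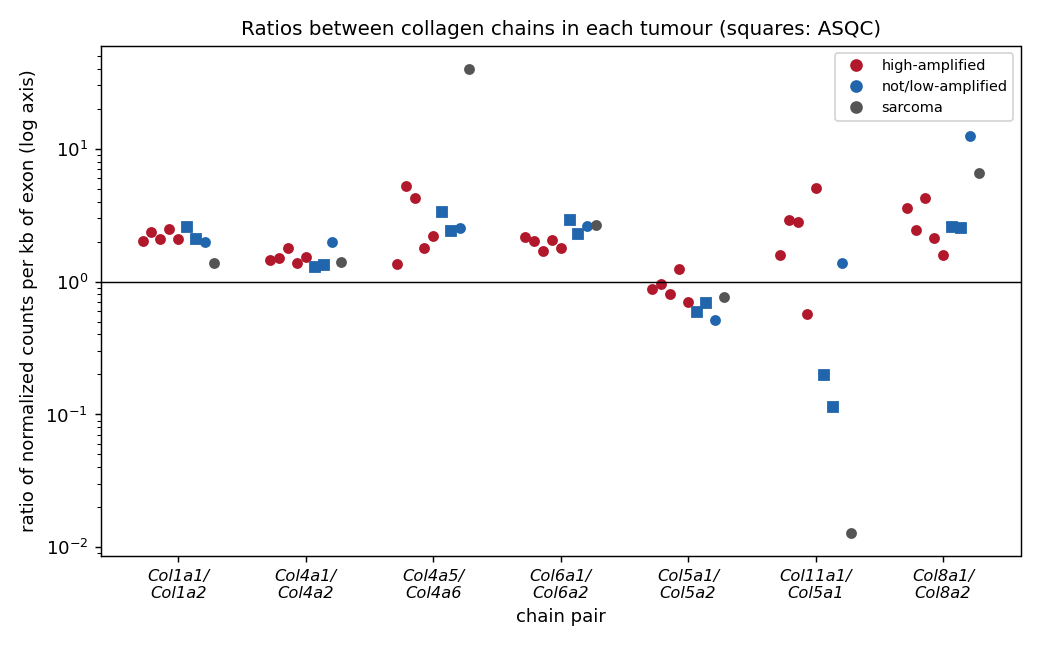
Ratio of normalized counts per kilobase of exon between the chains of 7 pairs (vertical log axis) in each tumour, in the order high-amplified (red), not/low-amplified (blue) and sarcoma (grey); squares are ASQC and the line marks a ratio of 1. The Col1a1/Col1a2 and Col4a1/Col4a2 ratios stay within 1.98 to 2.59 and 1.28 to 2.00 in the epithelial tumours, while Col11a1/Col5a1 ranges from 0.113 to 5.10.

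The enzymes and chaperones that make collagen were read from a list of 34 genes, all past the filter. In edgeR's test 0 were called in either direction between amplification groups, 9 had an unadjusted p under 0.05 (background 22.8% of all genes), and DESeq2 called Adamts14 and P3h2, both higher with high amplification (background 6.31%), and 0 lower (background 4.32%). The list had a median log2 fold change of 0.59, with 23 above and 11 below 0. The farthest above 0 were Adamts14, which removes the amino-terminal propeptide, at 3.01 (SE 0.76), Tll2, a relative of the carboxy-terminal proteinase, at 2.67 (SE 1.73), and Pcolce2, an enhancer of that proteinase, at 2.11 (SE 0.89). Adamts14 had 80.0, 96.3, 306, 362 and 104 normalized counts in the high-amplified tumours and 32.4, 29.5 and 8.01 in the not/low-amplified tumours, without overlap between groups. The farthest below 0 were Loxl4, which cross-links fibres, at -3.08 (SE 1.32), Pcsk6, a proprotein convertase, at -1.48 (SE 0.65), and P4ha2, which hydroxylates proline, at -1.27 (SE 0.46). Loxl4 had 50.3, 85.3, 312, 184 and 14.9 normalized counts in the high-amplified tumours and 3116, 138 and 14.9 in the not/low-amplified tumours, and MS1210.1 stood far above all others. Among 10 collagen receptors, 9 were tested and 0 called by edgeR or DESeq2, with the same backgrounds, and 1 had an unadjusted p under 0.05 and was Ddr2, a receptor tyrosine kinase, at 1.18 (SE 0.52). The median of the receptors was 0.37. Between histotypes, edgeR called 0 of the 34 synthesis genes higher in ASQC (background 0.221%) or in AC(NST) (background 0.0143%). DESeq2 called Loxl4 higher in ASQC (background 1.27%) and Adamts3 and Pcolce2 higher in AC(NST) (background 1.42%). By parity, neither tool called any of the 34 (DESeq2 background 2.94% higher in parous and 0.671% higher in virgin tumours).

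Between histotypes, the 2 ASQC were set against the 6 AC(NST). In edgeR's test 0 of 42 collagen genes were called higher in ASQC (background 0.221%) and 0 higher in AC(NST) (background 0.0143%), and 6 had an unadjusted p under 0.05 (background 8.72%). DESeq2 called 3 higher in AC(NST), Col11a1, Col11a2 and Col20a1 (background 1.42%), and 0 higher in ASQC (background 1.27%), but it gave no adjusted p for Col17a1, Col23a1, Col4a3 and Col2a1, the last of which had none in the other comparisons either. Col17a1 was the 1 gene that was higher in both ASQC than in any AC(NST) (background 5.26%). Its lower ASQC was 5.63 times its highest AC(NST), and its log2 fold change was 4.98 (edgeR adjusted p = 0.141). Without MS1155.3 that gene was called, at 6.43 (edgeR adjusted p = 0.0115). Krt5, a keratin of basal cells, had 149, 12, 42, 29.0 and 1341 normalized counts in the high-amplified tumours and 2496, 1605 and 11.4 in the not/low-amplified tumours, highest in the 2 ASQC and next in MS1155.3, as Col17a1 was. Of the other 5 basal epithelial markers Trp63 had the same top 3 tumours, whereas Acta2 (10522 normalized counts), Myh11 (1381) and Cnn1 (369.8) were highest in MS1218.2, an AC(NST), and Krt14 was higher in MS1166.1 (6250.2) than in the ASQC MS1349.1 (4923). All 6 markers summed to 54814 and 10231 in ASQC and to 1149 to 12561 in AC(NST), and their part in the result was not tested. In the other direction, 5 genes did not overlap, Col11a1, Col11a2, Col20a1, Col4a5 and Col4a6 (background 4.98%), with log2 fold changes of -3.69, -2.84, -2.88, -0.76 and -0.86. Since both ASQC are also not/low-amplified, this comparison shares its tumours with the first.

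Between the 5 parous and 3 virgin tumours, edgeR called 0 of 42 collagen genes higher in either (background 0.0% in parous and 0.0% in virgin), and 4 had an unadjusted p under 0.05, Col2a1, Col4a4, Col4a5 and Col17a1 (background 14.2%). DESeq2 called Col17a1 higher in parous tumours (background 2.94%) and 0 higher in virgin tumours (background 0.671%). Col2a1 was the 1 gene whose values did not overlap (background 5.37% higher in parous and 3.89% higher in virgin tumours): the virgin tumours held at most 10.8 normalized counts and the parous ones at least 16.9. In raw counts the virgin tumours held 2, 9 and 9 and the lowest parous tumour, MS1349.1, held 24, so this gap rests on few counts. The log2 fold changes, parous minus virgin, were 7.13 for Col2a1, 4.97 for Col17a1, -1.99 for Col4a4 and -0.72 for Col4a5, with edgeR adjusted p-values of 0.305, 0.312, 0.353 and 0.347. Without MS1166.1 the value for Col2a1 was 3.21 (edgeR adjusted p = 0.323). The median over the 42 genes was 0.28, beside 0.0959 for all genes. The virgin tumours MS1163.1 and MS1163.2 carry the same mouse number, so they may not be independent. Every virgin tumour was also high-amplified, as were the parous MS1218.2 and MS1155.3, so parity and amplification cannot be told apart in full here.

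The sarcoma is a single tumour, so its differences from the 8 epithelial tumours have no replicate check. Of 43 collagen genes past a filter over all 9 tumours, 5 were over 4 times the highest epithelial value (background 3.65%) and 4 were below the lowest divided by 4 (background 4.79%). Col20a1 had 74757 normalized counts in the sarcoma and 16.9 to 251 in the epithelial tumours. Col28a1 had 15976 and 10.8 to 111. Col20a1, scarce in the epithelial tumours, was thereby among the abundant collagens of the sarcoma. Per kilobase of exon it reached 14539 normalized counts there, close to Col1a2 (13526) and Col4a1 (14877) and below Col1a1 (18753) and Col3a1 (26346). Col28a1 reached 3258 per kilobase. Col27a1 had 9589 against 24 to 1089, Col5a3 18701 against 251 to 4334, and Col22a1, a FACIT collagen of muscle and tendon junctions, 67.2 against 0 to 13.0. Col22a1 passed the filter only through its 50 raw counts in the sarcoma, so its place among the 5 is no separate result. The background genes passed the same filter.

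The genes far below the epithelial range were Col4a5, with 493 normalized counts against 3023 to 8408, Col4a6 with 13.4 against 1083 to 4028, Col9a1 with 2.69 against 51.9 to 9513 and Col25a1 with 4.03 against 35.1 to 2042. In raw counts these were 367, 10, 2 and 3, so the last 2 lie at or under the 3 counts that a count of 0 allows. Col4a1 and Col4a2, by contrast, were 2.45 and 2.42 times the highest epithelial tumour, and the ratio of Col4a5 to Col4a6 was 39.7 against 1.35 to 5.28. Col11a1, at 807, lay between the not/low-amplified ASQC. In all, 20 genes stood above (background 22.2%) and 8 below (background 20.3%) every epithelial tumour. Fibroblast markers summed to 43242 normalized counts in the sarcoma, of which Dcn gave 23467, and 5 skeletal muscle markers to 46334, of which Myh1 gave 33691; the part of either in the collagen values was not tested.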

How the data were processed

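Total RNA of 9 snap-frozen mammary tumours was depleted of ribosomal RNA and made into strand-specific libraries (NEBNext Ultra Directional). According to the study's methods, reads were aligned to mouse build 38 with STAR, keeping unique reads, and counted per gene with HTSeq. The authors deposited raw counts per gene and a signal table, which holds those counts divided by 1 constant for each tumour (DESeq2 scaling).

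Groups were taken from the labels. The deposited counts were tested with edgeR 4.0.16 in R 4.3.3 (TMM scaling, quasi-likelihood test, Benjamini-Hochberg adjustment) over the 8 epithelial tumours and 14007 genes that reached 10 counts in 3 or more of them, for high-amplified against not/low-amplified, ASQC against AC(NST), and parous against virgin. Genes were called at an adjusted p-value under 0.05 with a log2 fold change outside -1 to 1. Printed normalized counts were counts divided by median-of-ratios factors over all 9 libraries, and values per kilobase used the exon length of GENCODE in GRCm38. Chain ratios were tested with an exact permutation test. DESeq2 1.42.0, limma 3.58.1 on log2(signal + pseudocount) with a pseudocount of 1 or 10, other scalings and filters, and the omission of each tumour were alternatives. Scripts were tested on simulated data. Total counts of 12501225 to 23912429 per tumour set the counting precision, which is finer than the spread between tumours.

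Named genes were those called, those without overlap between amplification groups, the 4 largest log2 fold changes in each direction per class, the 3 most abundant per kilobase per class, those far outside the epithelial range in the sarcoma, the chains of the ratio pairs, and the 3 largest changes in each direction of the synthesis list. Col4a3, Col10a1, Col13a1, Col14a1, Col16a1, Col18a1 and further members were named after their values were seen, to account for each gene. The members and lists were chosen with earlier results of these data known.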

Additional observations from a re-analysis of the deposited data

Results flagged for a closer look

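Within the 5 high-amplified tumours, each of the 42 collagen genes tested was examined on the log2 scale for a single value far from the other 4. MS1218.2 stood far above the rest for 3 genes, and no other tumour stood apart for any. Col4a2, a type IV chain, had 28884 normalized counts there and 4392 to 6769.8 in the other high-amplified tumours. Col5a3, a type V chain, had 4334 against 708 to 937. Col6a4, a type VI chain, had 66.8 against 9.59 to 10.2, which rest on only 8 to 11 raw counts. A value was flagged when its gap to the next value was over 0.71 of the range, a cutoff meant to mark about 1 in 20 groups by chance. All 3 flags were in MS1218.2, so they are not independent, and their number is not read against that rate. The share of all genes that this rule marks is not given here. MS1218.2 also had the highest sums of fibroblast, macrophage and endothelial markers of the epithelial tumours, and their part in these values was not tested.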

How the results depend on the processing

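The number of collagen genes called higher in high-amplified tumours, 2, was 8 in DESeq2 and 0 with the pair of tumours of the same mouse number summed, with parity as a covariate, in parous tumours alone, in AC(NST) tumours alone, with the sarcoma set with the not/low-amplified tumours, and without MS1218.2 and MS1210.1 (chosen after seeing the data); leaving out 1 tumour gave 0 to 5. The cause was not tested. Calls higher in not/low-amplified tumours were 2 in DESeq2 and 0 without any 1 tumour. Calls higher in ASQC were 1 without a filter on low counts and in limma with a pseudocount of 10, and 0 to 1 with 1 tumour left out; DESeq2 called 3 higher in AC(NST) and 1 higher in parous tumours. Without the 100 most abundant other genes in the total, the collagen share was 1.72, 1.27, 1.61, 4.64 and 0.838% in the high-amplified tumours, 1.64, 0.812 and 0.603% in those not/low-amplified, and the sarcoma reached 7.24%. With 1 tumour left out, the log2 ratio difference ranged from -0.082 to 0.11 for Col1a1/Col1a2, -0.10 to 0.22 for Col4a1/Col4a2, -0.31 to 0.18 for Col4a5/Col4a6 and -1.11 to 0.036 for Col8a1/Col8a2.

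Log2 fold changes between amplification groups changed sign for 30 of the 42 genes under at least 1 alternative, and 0 of the reversed values met the call. They are listed for genes given with a value in the report; of 6 others (Col6a3, Col6a4, Col6a5, Col9a2, Col9a3 and Col14a1) 5 changed sign. In limma, Col4a3 was -0.10, Col6a1 -0.17 and Col7a1 0.28 with a pseudocount of 1, and Col6a1 -0.17 and Col7a1 0.27 with 10. Col4a3 was -0.20 with the same-mouse pair summed, -0.86 with parity as a covariate and -0.84 in parous tumours alone. In AC(NST) tumours alone, Col7a1 was 2.42, Col10a1 2.27, Col12a1 0.22, Col17a1 1.70 and Col24a1 2.09. With the sarcoma included, Col1a2 was -0.51, Col3a1 -0.63, Col4a1 -0.97, Col4a2 -1.03, Col4a3 -1.08, Col5a1 -0.75, Col5a2 -1.25, Col5a3 -1.71, Col6a1 -1.52, Col6a2 -1.12, Col7a1 0.13, Col15a1 -1.28, Col16a1 -0.11, Col18a1 -1.48, Col20a1 -6.66, Col27a1 -2.12 and Col28a1 -5.82. Without MS1218.2 and MS1210.1, Col6a1 was -0.36, Col6a2 -0.0076, Col7a1 1.82, Col12a1 0.51 and Col24a1 0.95. With 1 tumour left out, Col2a1 ranged from -6.42 to 1.01, Col4a2 from -0.028 to 1.11, Col4a3 from -0.44 to 0.34, Col5a2 from -0.15 to 1.36, Col6a1 from -0.61 to 0.46, Col6a2 from -0.15 to 0.82, Col7a1 from -0.73 to 1.58, Col8a1 from -0.091 to 0.74, Col12a1 from -0.98 to 0.74, Col13a1 from -0.17 to 0.53, Col18a1 from -0.064 to 1.20, Col24a1 from -1.20 to 1.05 and Col25a1 from -2.90 to 0.81. Where an omission left 1 tumour in an arm, that tumour was assumed to vary like the other group.

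No paired analysis was possible because no mouse number occurs in both groups of any comparison. The labels carry no replicate numbers, and those used here follow accession order. Scarce genes such as Col26a1 and Col6a6 rest on few counts, and the design of 5 against 3 tumours cannot fully separate amplification from parity or histotype.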
